A study of Mus musculus with 6 samples.

Results

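The p53 tumour suppressor gene Trp53, its negative regulator Mdm2 and 8 genes that p53 activates directly were followed in Alkbh1 knockout (KO) and wild-type (WT) mouse embryonic stem (ES) cells. The 10 genes were Trp53, Mdm2, Cdkn1a, Trp53inp1, Ccng1, Bax, Aen, Bbc3, Zmat3 and Phlda3, picked by symbol from the 23951 genes of the study, and all 10 were found and tested. The knocked-out gene, Alkbh1, codes for a dioxygenase related to bacterial AlkB. The cells were of the TT2 line, from a C57BL6 x CBA background, at passage 5, cultured with no feeder layer in the usual ES cell medium. Messenger RNA was sequenced from 6 libraries. Of these, 2 were WT and 4 were labelled Alkbh1 KO, with 2 clones sequenced in 2 libraries apiece. The values were deposited as 1 FPKM (fragments per kilobase of transcript, normalised to library size) for WT and 1 for KO, so that no library or clone has a value of its own, no SD can be given and the depth is unknown. The labels do not say whether the libraries came from separate cultures, and a difference between genotypes cannot be told apart from a difference between cell clones. In bulk RNA, fewer cells expressing a gene and less RNA per cell cannot be told apart either.

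The libraries labelled KO had less Alkbh1 RNA, without passing the test. In the authors' deposited table, Alkbh1 stood at 33.9 FPKM in WT against 18.1 FPKM in KO (q = 0.0943). Its log2 fold change was -0.90 as deposited and -0.25 when both conditions are given equal totals, as explained below. Which exons the knockout removes is not given in the labels, so a value for the whole gene is no check of the allele. The cells carried ES cell markers, all 13 of which were between 13.8 and 3753 FPKM in WT and between 22.6 and 2099 FPKM in KO per the authors' deposited table. Their sum was 7705 FPKM in WT against 4785 FPKM in KO. The sum over all tested genes was lower in KO too, at 981679 FPKM in WT against 624340 FPKM in KO. Of the 12 markers that were tested, 8 were called lower and 1 higher, against 28.4% and 22.4% of all tested genes. Fibroblast markers, which would mark feeder cells, summed to 8.21 FPKM in WT against 12.6 FPKM in KO over 11 genes, with 9 of them under 1 FPKM in both conditions. Endoderm markers summed to 8.58 FPKM and 11.4 FPKM over 10 genes, with 7 under 1 FPKM in both, and neural markers to 51.7 FPKM and 49.5 FPKM over 7 genes, most of it from Tubb3. That sum hides calls both ways: Pax6 (3.58 against 0.552 FPKM) and Sox1 (0.559 against 0.124 FPKM) were called lower in KO, and Map2 (0.717 against 1.55 FPKM) higher, per the authors' deposited table. Calls went both ways among fibroblast markers (3 higher, 1 lower) and endoderm markers (3 higher, 2 lower) too. Most of the fibroblast sum came from Thy1, at 6.43 FPKM in WT against 9.39 FPKM in KO per the authors' deposited table. The part of other cell types in the differences below was not tested.

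The protein p53 is a transcription factor that stress signals stabilise. It binds DNA as a tetramer and activates genes that stop the cell cycle, start apoptosis or repair DNA. Among its targets is Mdm2, a ubiquitin ligase that marks p53 for degradation and so closes a feedback loop. ES cells are known for abundant p53 and for a weak arrest in G1 after DNA damage.

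The sites that p53 binds consist of a pair of 10-base half-sites, and promoters that hold such a pair are shown to place the members beside the motif of their regulator. RefSeq promoter windows (GRCm38.p6, 250 bases before to 50 after a gene's start) were at hand for 8 of the 10 members, and Trp53inp1 and Zmat3 had none. The p53 half-site consensus, which reads alike on both strands, was searched for with up to 1 mismatch in each half-site and a gap of at most 13 bases between both. A pair was found in Cdkn1a, Ccng1 and Bax. The windows of Cdkn1a (chr17:29090729-29091028, plus strand), Ccng1 (chr11:40755237-40755536, minus strand) and Bax (chr7:45466849-45467148, minus strand) are given in the direction of transcription, with the half-sites in capitals.
Cdkn1a promoter: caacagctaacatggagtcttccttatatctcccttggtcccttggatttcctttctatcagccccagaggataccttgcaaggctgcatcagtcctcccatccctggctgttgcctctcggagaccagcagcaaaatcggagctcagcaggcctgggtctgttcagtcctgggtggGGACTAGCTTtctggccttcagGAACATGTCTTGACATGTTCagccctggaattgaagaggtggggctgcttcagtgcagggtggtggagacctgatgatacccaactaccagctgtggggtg
Ccng1 promoter: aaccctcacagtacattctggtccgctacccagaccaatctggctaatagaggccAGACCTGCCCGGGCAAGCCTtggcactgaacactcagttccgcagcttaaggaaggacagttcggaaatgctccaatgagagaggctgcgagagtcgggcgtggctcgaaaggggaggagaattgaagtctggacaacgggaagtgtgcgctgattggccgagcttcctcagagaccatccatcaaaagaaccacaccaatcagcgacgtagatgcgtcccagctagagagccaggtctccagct
Bax promoter: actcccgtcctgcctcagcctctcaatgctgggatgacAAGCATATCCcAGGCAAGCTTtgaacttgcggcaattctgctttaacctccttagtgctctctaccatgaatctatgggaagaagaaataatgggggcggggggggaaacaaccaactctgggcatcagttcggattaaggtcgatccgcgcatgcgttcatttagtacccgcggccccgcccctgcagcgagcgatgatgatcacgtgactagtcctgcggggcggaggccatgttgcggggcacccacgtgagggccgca
In Cdkn1a, at the upstream of its 2 RefSeq starts, the capitals hold 2 pairs that share a half-site. One pair runs from 51 to 32 bases before the start with no gap (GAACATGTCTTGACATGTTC), and the other, which matches the consensus without a mismatch, from 73 to 42 bases before it with a gap of 12 bases. The Ccng1 pair lies 195 to 176 bases before the start with no gap, and the Bax pair 212 to 192 bases before it with a gap of 1 base. A single exact half-site was found in Mdm2 (GAACTTGCCT, 186 to 177 bases before the start), in Trp53 itself (GGACTTGCCC, 75 to 66 bases before) and in Aen (GGGCTTGTCC, 121 to 112 bases before the downstream of its 2 starts). The windows of Bbc3 and Phlda3 held neither. Of all 32851 RefSeq windows, 6.72% held a pair with up to 1 mismatch in each half-site, 0.0731% a pair without mismatch and 8.36% an exact half-site. A match describes letters in the window, and binding was not measured. Of the 3 genes with a pair, Cdkn1a and Ccng1 were called higher in KO and Bax lower as deposited, a value that turns to 0.28 when both conditions are given equal totals, as explained below.

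Calls among the members went both ways as deposited. At the deposited q under 0.05, 3 of the 10 members were called higher in KO (Trp53inp1, Cdkn1a and Ccng1), 3 lower (Trp53, Bax and Aen), and 4 were not called (Mdm2, Bbc3, Zmat3 and Phlda3). Among all 14095 tested genes 22.4% were called higher, 28.4% lower and 50.8% in either direction, so the members' shares of 30.0% each way are near the background. The median log2 fold change of the 10 was 0.22, against -0.06 over all tested genes. Those directions depend on how WT and KO are scaled to each other. Over the tested genes, the FPKM added up to 981679 in WT but 624340 in KO, and setting both sums equal raises every log2 fold change by 0.65. All 10 members then lie above 0, with Trp53 at 0.21, Bax at 0.28 and Aen at 0.053, and the 6 called members split into 6 above and 0 below. That shift is the same for every gene: with equal totals 81.3% of the tested genes with a finite fold change and 66.8% of the called ones lie above 0, and the median of all of them is 0.59, against 0.88 for the members.

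**Figure D1:**
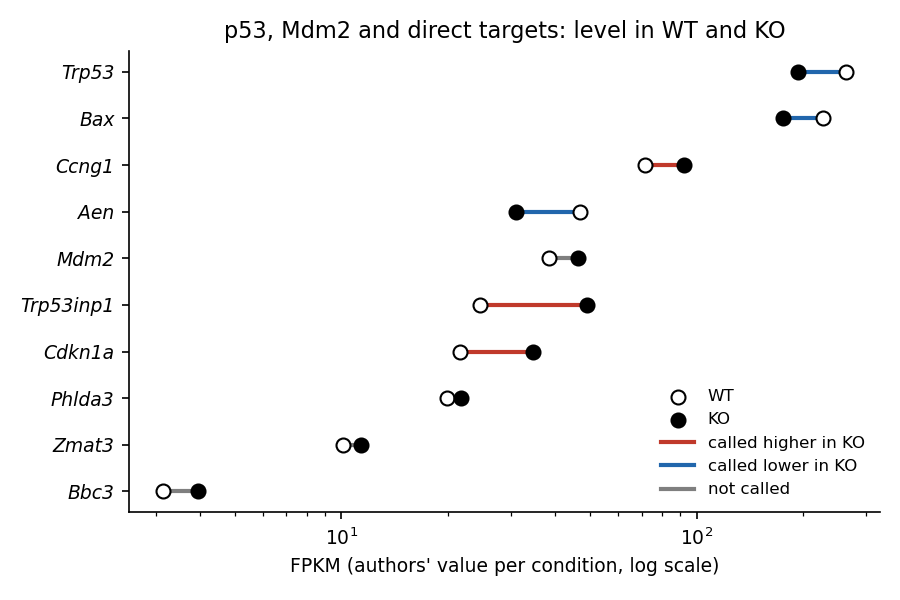
Level of each member in WT (open circles) and KO (filled circles) in FPKM on a log axis, 1 value per condition as the authors deposited it; line colour gives the call at q under 0.05 and the sign as deposited. Trp53 and Bax are the most abundant members in both conditions and are lower in KO as deposited, but not with equal totals, while Trp53inp1 shows the widest rise, from 24.5 to 49.3 FPKM.

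Trp53 was the most abundant member and was lower in KO as deposited. Per the authors' deposited table, Trp53 (chromosome 11, 69393860 to 69405375, mm9) stood at 263 FPKM in WT against 193 FPKM in KO, a log2 fold change of -0.44 (q = 0.00914), which turns to 0.21 with equal totals. Its level in KO was 73.6% of that in WT. The gene Wrap53, whose transcripts are known to run antisense across the start of Trp53, ends 1034 bp before Trp53 per the authors' deposited table and stood at 30.9 FPKM in WT against 30.8 FPKM in KO (q = 0.971). The deposited regions of both genes do not overlap. The sources used here do not say whether strand was used in counting, so how reads of such antisense transcripts were counted is uncertain.

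Mdm2, the ligase that limits p53, did not pass the test. It stood at 38.4 FPKM in WT against 46.4 FPKM in KO per the authors' deposited table (chromosome 10, 117125930 to 117147814, mm9), a log2 fold change of 0.27 with q = 0.126. Set against Trp53 within each condition, a measure that scaling between WT and KO does not touch, Mdm2 amounted to 14.6% of the Trp53 level in WT and 24.0% in KO. Its relative Mdm4, which binds and inhibits p53 without degrading it, was at 20.7 FPKM in WT against 68.2 FPKM in KO per the authors' deposited table. Mdm4 was therefore below Mdm2 in WT, at 0.540 of its FPKM, and above it in KO, at 1.47. No error can be attached to these ratios, and they do not allow for the trend of fold change with level described below.

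Cdkn1a and Ccng1 were called higher. Cdkn1a encodes p21, an inhibitor of cyclin-dependent kinases and the main effector of p53 in G1 arrest. By the authors' deposited table, Cdkn1a (chromosome 17, 29227930 to 29237667, mm9) rose from 21.6 to 34.7 FPKM, a 1.61-fold difference (log2 fold change 0.68, q = 0.000206). Relative to Trp53 its level went from 8.20% in WT to 17.9% in KO. Ccng1, which encodes cyclin G1, a partner of protein phosphatase 2A that acts on Mdm2, rose from 71.5 to 92.2 FPKM per the authors' deposited table (chromosome 11, 40562053 to 40568788, mm9), a 1.29-fold difference (log2 fold change 0.37, q = 0.0327). Under the scalings and centrings tried, log2 values ran from 0.66 to 1.34 for Cdkn1a and from 0.36 to 1.09 for Ccng1. Each scaling and centring raised the values of both genes, and adding 1 to the FPKM cannot change a sign. Their staying above 0 is therefore no test of the rise.

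Members with a role in apoptosis include Trp53inp1, Bax, Aen and Bbc3. Of these, Trp53inp1 was called higher, Bax and Aen lower as deposited but above 0 with equal totals, and Bbc3 was not called. Trp53inp1, a stress-induced nuclear protein that takes part in apoptosis and autophagy, had the largest fold change of the 10 members. In the authors' deposited table it rose from 24.5 to 49.3 FPKM (chromosome 4, 11083587 to 11101524, mm9), a 2.01-fold difference (log2 fold change 1.01, q = 0.000206). The smallest p-value of the table, 5e-05, is shared by 3418 tested genes, Trp53inp1 and Cdkn1a among them, so their q does not rank them.

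Bax encodes the pore-forming protein of the mitochondrial outer membrane and was nearly as abundant as Trp53. As listed in the authors' deposited table, Bax (chromosome 7, 52717064 to 52722268, mm9) stood at 227 FPKM in WT against 175 FPKM in KO, a log2 fold change of -0.37 (q = 0.0349). That fall turns to 0.28 with equal totals, to 0.35 against genes of its level and to 0.09 against genes of its transcript length. Aen, a nuclease of apoptotic cells, was lower by more, at 47.0 FPKM in WT against 31.0 FPKM in KO per the authors' deposited table (chromosome 7, 86040812 to 86053719, mm9), a log2 fold change of -0.60 (q = 0.00056). With equal totals Aen was at 0.05, and against genes of its level at -0.09. It was the only member of the 10 whose level fell relative to Trp53 as deposited, from 17.9% to 16.0%.

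Bbc3 encodes PUMA, a BH3-only protein that sets BAX free, and was the least abundant member. It was at 3.15 FPKM in WT against 3.94 FPKM in KO per the authors' deposited table (chromosome 7, 16894931 to 16903683, mm9), a log2 fold change of 0.32 that was not called (q = 0.175). For the low level of Bbc3, the fold change on the log2(FPKM + 1) scale was 0.25.

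The remaining members did not pass the test. Phlda3, a pleckstrin homology domain protein that keeps the kinase AKT from membranes, was at 19.8 FPKM in WT against 21.7 FPKM in KO per the authors' deposited table (chromosome 1, 137662661 to 137665711, mm9; log2 fold change 0.14, q = 0.516). Zmat3, a zinc finger protein that binds RNA, was at 10.1 FPKM in WT against 11.4 FPKM in KO per the authors' deposited table (chromosome 3, 32233715 to 32266360, mm9; log2 fold change 0.17, q = 0.364). Zmat3 shares its region in the table with 4930429B21Rik, which stood at 0.571 FPKM in WT against 0.923 FPKM in KO there (q = 0.68), so reads of that pair are uncertain. A q above the threshold does not show that these 4 genes were equal in both genotypes.

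The order of the members by level shifted with these changes. Trp53, Bax and Ccng1 held ranks 1, 2 and 3 in both conditions, and Phlda3, Zmat3 and Bbc3 ranks 8, 9 and 10. Aen went from rank 4 in WT to rank 7 in KO, and Trp53inp1 from rank 6 to rank 4. Cdkn1a moved from rank 7 to rank 6, while Mdm2 kept rank 5. Relative to Trp53, 8 members were higher in KO than in WT, from Bax, by 0.07 on the log2 scale, to Trp53inp1, by 1.45. These differences between members are free of a uniform scaling between conditions but carry no error of their own. They also do not allow for the trend with level described next. Trp53 was in the highest decile by level, whose median log2 fold change was -0.72. Centred by level, Trp53 stood at 0.28, with Zmat3 (0.21), Bbc3 (0.09) and Aen (-0.09) below it and the other members above.

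Fold changes in this comparison followed the level of a gene, and the members were abundant. The median log2 fold change went from 0.69 in the lowest decile of tested genes by mean FPKM to -0.72 in the highest, and 8 of the 10 members were in the top 3 deciles. Against the median of their own decile, 9 of 10 lay above it and Aen below. Trp53inp1 was 1.52 above its decile's median, higher than 99.3% of the genes there, Ccng1 1.09 above (97.8%), Cdkn1a 1.03 above (97.6%) and Mdm2 0.78 above (94.4%). Bax at 0.35 above (80.5%) and Trp53 at 0.28 above (75.9%) were thus lower in KO as deposited and yet on the upper side of equally abundant genes. Phlda3 was above 83.4%, Zmat3 above 66.7% and Bbc3 above 56.0% of their deciles. Longer transcripts also had higher fold changes (Spearman's rho of 0.30 over 13932 tested genes with a known length and a finite fold change, a description, since genes are not independent). After the median of the same length decile was subtracted, Trp53 stood at -0.35, Aen at -0.67, Zmat3 at -0.26 and the other 7 members above 0. The median of the 10 was 0.41 after centring by level and 0.42 after centring by length, where that of all tested genes is 0 by construction.

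**Figure D2:**
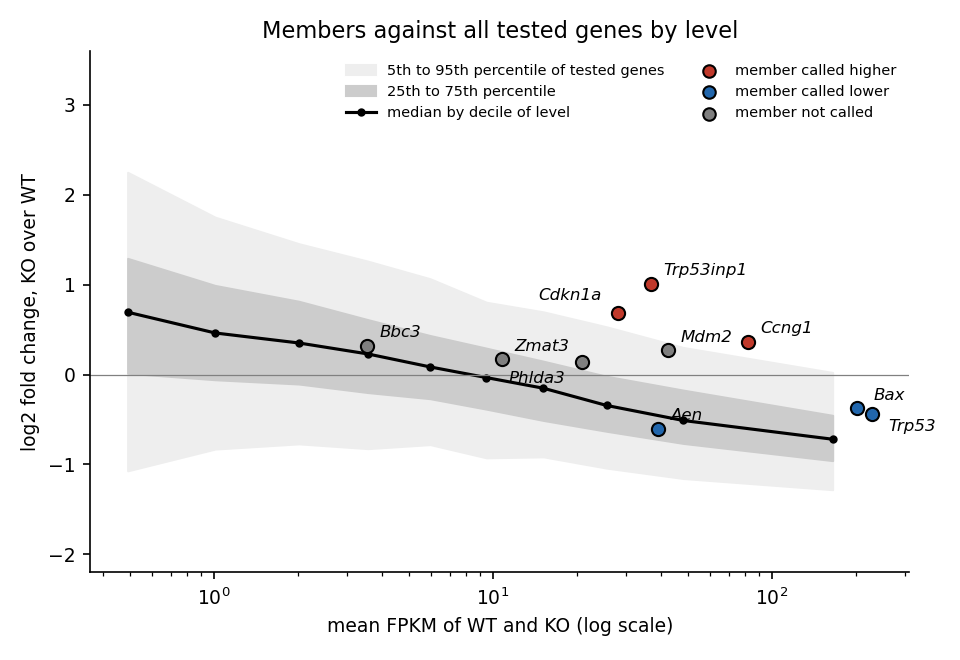
Log2 fold change of KO over WT against the mean FPKM of both conditions (log axis) for the 10 members, over the medians and percentile bands of all tested genes in deciles of level. The line falls from 0.69 to -0.72, and Trp53inp1, Cdkn1a and Ccng1 lie above the 95th percentile band of genes of their level while Aen lies just under the median of its own decile.

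**Figure D3:**
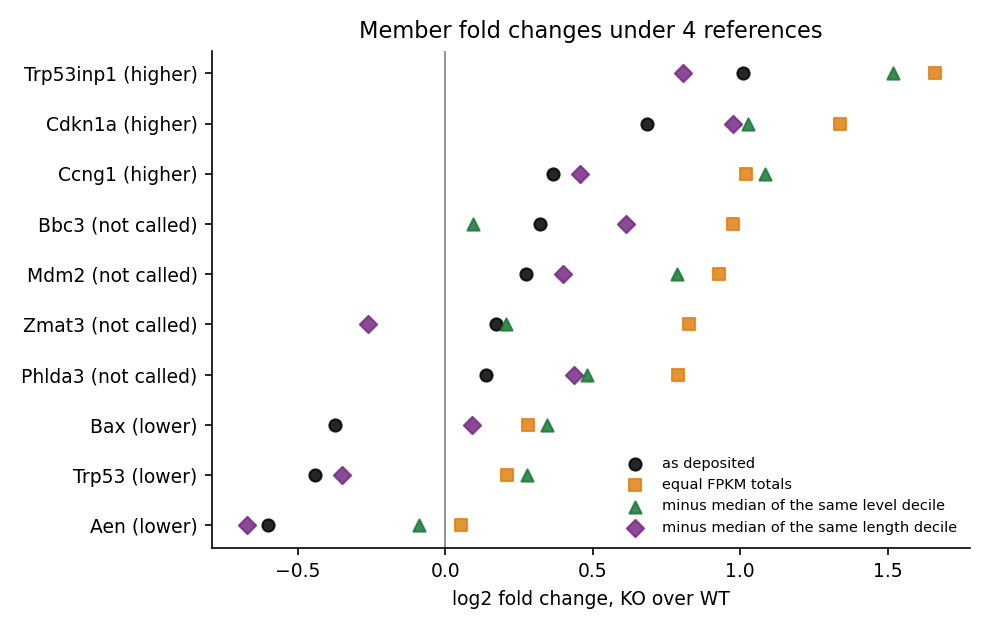
Log2 fold change of each member as deposited (circles), with equal FPKM totals (squares), and after subtracting the median of the same decile of level (triangles) or of transcript length (diamonds); the call at q under 0.05 as deposited stands in brackets. Trp53inp1, Cdkn1a, Ccng1, Bbc3, Mdm2 and Phlda3 are above 0 under all 4, and Zmat3, Trp53, Bax and Aen change side with the reference.

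Calls of the members under other thresholds stayed close to the background as well. At q under 0.01, 2 were higher and 2 lower, where 17.2% and 22.6% of all tested genes were called, and at q under 0.1 the counts were 3 and 3, against 25.4% and 31.8%. With at least a 1.5-fold difference beside q under 0.05, 2 members were higher (Trp53inp1 and Cdkn1a) and 1 lower (Aen), against 17.7% and 19.6% of all tested genes.

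The surroundings of each member were compared next, since neighbouring genes can move together. Of the 20 tested genes around a member (10 on each side), between 1 and 9 were called higher, and 6 members lay above the median of their neighbours. After centring by level, a setting chosen after seeing the data, 8 did, all but Trp53 and Aen. Trp53inp1 stood 1.28 above its neighbours on the log2 scale, whose median was -0.27, and 17 of 20 neighbours lay below it. Ccng1 was 0.53 above its neighbours and Cdkn1a 0.44 above, though the neighbours of Cdkn1a also had a median above 0 (0.24). The uncalled Zmat3, Mdm2 and Bbc3 had gaps close to that of Cdkn1a (0.44, 0.43 and 0.39). Trp53 and Aen lay below neighbours that tended upward as deposited, with medians of 0.29 and 0.36. Around each, 8 of 20 genes were called higher, against 22.4% of all tested genes. Centred by level the gaps were smaller, with Trp53 at 0.28 against 0.49 and Aen at -0.09 against 0.16.

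Phlda3 lay beside a stretch of chromosome 1 where many genes were higher in KO. Of its 20 neighbours, 9 were called higher and 1 lower (median log2 fold change 0.40), and Phlda3 itself at 0.14 lay 0.27 below that median. Centred by level it is above, at 0.48 against 0.42, so its side depends on the reference; Bax changes side likewise (0.35 against 0.09). By position in the authors' deposited table, Mdm4 starts 2.78 Mb and Btg2, an antiproliferative p53 target, 1.69 Mb before Phlda3. On the side of Mdm4 and Btg2, 37 of the 65 tested genes within 5 Mb were called higher and 7 lower, with a median of 0.63. On the other side 3 of 20 were higher and 2 lower, with a median of 0.05. Over all tested genes 22.4% were called higher and 28.4% lower. The medians of both sides are not centred by level, and genes of low level tended upward, with a median of 0.69 in the lowest decile. This stretch was looked at because its high values were known. A raised share of higher calls was not particular to Phlda3. With 20 genes on each side, 14 of 40 were called higher around Phlda3 and 14 of 40 around Bax. Around Trp53 it was 18 of 40 and around Aen 15 of 40, with fewer around the other members. Whether the values of Mdm4 and Btg2 belong to p53 or to their position was not tested.

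**Figure D4:**
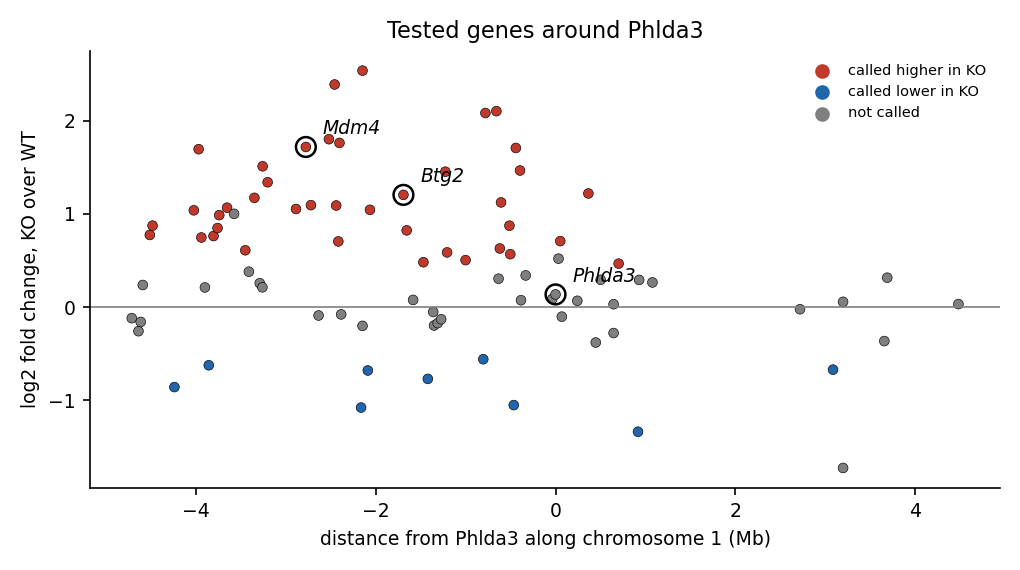
Log2 fold change of KO over WT for the 86 tested genes within 5 Mb of Phlda3 against their distance from its start in Mb, coloured by the authors' call. Higher calls gather to the left, where Mdm4 and Btg2 lie, and Phlda3 stands near 0 at the edge of that stretch.

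Other genes known to be activated by p53 were more often higher than lower. Of 44 tested, 19 were called higher, 4 lower and 21 not called, which is 43.2% higher and 9.09% lower against 22.4% and 28.4% of all tested genes, and their median log2 fold change was 0.24. With equal totals, 21 of the 23 called genes were above 0 and 2 below, where 66.8% of all called genes are above 0, and against genes of their level the list's median was 0.37. In the authors' deposited table, Ephx1, an epoxide hydrolase, rose from 10.3 to 30.5 FPKM, and Apaf1, the scaffold of the apoptosome, from 3.45 to 9.26 FPKM. Ephx1 lies on chromosome 1 (182919686 to 182947626, mm9), as Mdm4 and Btg2 do, and whether its value belongs to its position was not tested. Lpin1, a phosphatidate phosphatase, rose from 1.80 to 4.71 FPKM, and Dcxr, a xylulose reductase, from 4.52 to 11.3 FPKM per the authors' deposited table. The lower genes were Gadd45a, Rps27l, Triap1 and Ppm1d. Gadd45a, a growth arrest and DNA damage gene, fell from 80.1 to 25.5 FPKM per the authors' deposited table, a log2 fold change of -1.65 that stays below 0 with equal totals (-0.999). Rps27l, a ribosomal protein relative that stood at 1684 FPKM in WT against 786 FPKM in KO per the authors' deposited table, is close in sequence to Rps27, so its reads are uncertain. Triap1 and Ppm1d, the phosphatase that ends p53 signalling, were at -0.56 and -0.38 per the authors' deposited table and turn to 0.10 and 0.27 with equal totals. As this list was drawn up with earlier results of these data known, its counts are no independent support of a direction.

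Among genes whose products modify, bind or limit p53 or Mdm2, lower calls outnumbered higher ones as deposited. Of 43 tested, 7 were higher, 22 lower and 14 not called, which is 16.3% higher and 51.2% lower beside 22.4% and 28.4% over all tested genes, at a median log2 fold change of -0.38. With equal totals 14 of the 29 called genes were above 0 and 15 below, and against genes of their level the list's median was 0.03. Mdm4 led the higher calls. Per the authors' deposited table, Crebbp, an acetyltransferase that acts on p53, rose from 1.15 to 2.94 FPKM, Ppp1r13b, which encodes the p53-binding protein ASPP1, from 1.19 to 2.98 FPKM, and the ubiquitin ligase gene Huwe1 from 23.5 to 40.2 FPKM. The strongest falls were in nucleolar and ribosomal proteins that bind Mdm2 or p53. By the authors' deposited table, Npm1 (nucleophosmin) went from 11451 to 4726 FPKM, Gnl3 (nucleostemin) from 293 to 129 FPKM and Rpl5 from 2427 to 1299 FPKM, and all 3 stay below 0 with equal totals (-0.62, -0.53 and -0.25). Topors, a ligase of p53, was at -0.89 per the authors' deposited table and at -0.24 with equal totals. Kinases of this list went different ways. Atm, Atr, Chek2 and Dyrk2 were not called (log2 fold changes of 0.11, 0.22, 0.12 and -0.05 per the authors' deposited table). Prkdc and Hipk2 were called higher (0.64 and 0.57 per the authors' deposited table). Chek1, Trp53rk and Aurka were called lower (-0.85, -0.74 and -0.57 per the authors' deposited table). With equal totals these 3 are at -0.20, -0.08 and 0.09.

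Among the wider apoptosis genes, calls went both ways at shares under or near the background. Of 22 tested genes of the BCL-2 family and the mitochondrial caspase pathway, 3 were higher (13.6%), 6 lower (27.3%) and 13 not called, beside 22.4% and 28.4% over all tested genes, with a median log2 fold change of 0.0045. With equal totals 6 of the 9 called genes were above 0 and 3 below. The higher genes were Apaf1, Bmf and Pmaip1, of which Apaf1 and Pmaip1 are also counted among the p53 targets above. Pmaip1, which encodes the BH3-only protein NOXA, rose from 29.5 to 48.3 FPKM and Bmf, another BH3-only gene, from 2.77 to 5.46 FPKM per the authors' deposited table. Bok, a relative of Bax, fell from 17.3 to 6.99 FPKM per the authors' deposited table and stays at -0.65 with equal totals. Cycs (cytochrome c), Aifm1 and Diablo, which encode proteins of the mitochondrial intermembrane space, stood at -0.97, -0.65 and -0.53 per the authors' deposited table. With equal totals Cycs is at -0.32, Aifm1 at 0.00 and Diablo at 0.12. Bax was 19.6 times as abundant as the survival gene Bcl2l1 by FPKM in WT and 17.5 times in KO. Its ratio to Mcl1, another survival gene, was 1.10 in WT and 1.19 in KO. Bcl2 itself was not tested, at 0.0829 FPKM in WT against 0.0937 FPKM in KO per the authors' deposited table.

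Cell cycle genes that p53 lowers by way of p21 and the DREAM complex were in part lower as deposited. Of 20 tested, 8 were lower (40%), 1 higher (Cenpf, 5.0%) and 11 not called, against 28.4% lower and 22.4% higher over all tested genes, with a median log2 fold change of -0.24. These genes are abundant, and against genes of their level 18 of the 20 were above the decile's median and the list's median was 0.31. With equal totals 5 of the 9 called genes were above 0 and 4 below. As listed in the authors' deposited table, Birc5 (survivin) stood at 332 FPKM in WT against 204 FPKM in KO, Ccnb2 at 152 and 95.04 FPKM, and Ccna2 at 158 and 99.1 FPKM, log2 fold changes of -0.71, -0.68 and -0.67 that become -0.05, -0.03 and -0.02 with equal totals. Cenpf, a kinetochore protein, rose from 24.0 to 32.8 FPKM per the authors' deposited table (q = 0.00824). It lies on chromosome 1 as well (191464492 to 191511965, mm9), and whether its value belongs to its position was not tested.

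Among relatives of the members, lower calls outnumbered higher ones as deposited. Of 15 tested, 3 were higher (20%), 8 lower (53.3%) and 4 not called, beside 22.4% and 28.4% over all tested genes. The list's median log2 fold change was -0.58 as deposited and -0.09 against genes of the same level, and with equal totals 5 of the 11 called genes were above 0 and 6 below. From the authors' deposited table, Cdkn1c, a relative of Cdkn1a that encodes p57, fell from 4.58 to 1.16 FPKM, while Cdkn1b, which encodes p27, was not called (-0.27, q = 0.198). Ccng2, the relative of Ccng1, rose from 4.76 to 9.40 FPKM per the authors' deposited table. Phlda2, an imprinted relative of Phlda3, fell from 31.9 to 12.3 FPKM, and Zmat2 was at -1.005 per the authors' deposited table, both lower with equal totals as well (-0.72 and -0.35). Cdkn1c (150644243 to 150646955, mm9) and Phlda2 (150687452 to 150688429, mm9) lie close together on chromosome 7. Whether their values belong to their position was not tested. The p53 relative Trp73 rose from 0.439 to 1.19 FPKM per the authors' deposited table, a low level, and Trp63 was not tested. The differences between relatives and members were not tested.

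**Figure D5:**
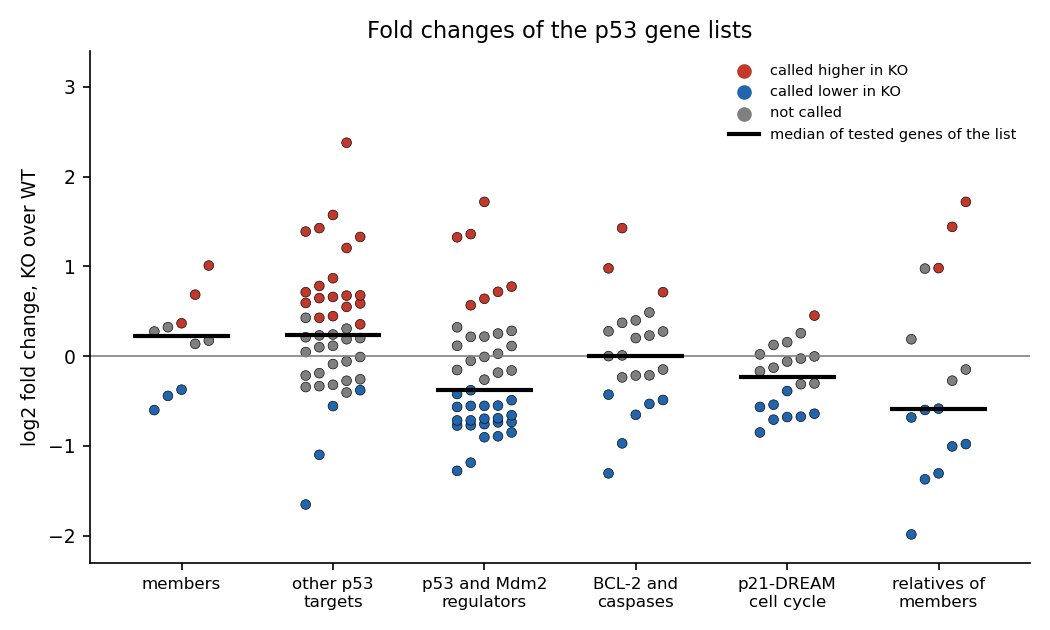
Log2 fold change of KO over WT as deposited for every tested gene of the members and of the 5 other lists, coloured by the authors' call at q under 0.05, with the median of each list as a bar; horizontal spread only separates points. Higher calls are most frequent among the other p53 targets (19 of 44) and lower calls fill most of the regulators (22 of 43), a split that becomes 14 above and 15 below 0 for the called regulators with equal totals.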

How the data were processed

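Messenger RNA libraries were made from total RNA with a strand-specific kit, per the labels' protocols, and aligned with TopHat2 to mm9, per the submitters' processing notes; the gene annotation, the counting and the scaling between libraries are not given in the sources used here. In the deposited table there is 1 FPKM per condition, and the authors also deposited a log2 fold change of KO over WT, a test statistic (a score), a p-value and a q-value for each gene. The deposited q-value equals a Benjamini-Hochberg adjustment over 14095 tested genes to within 5.18e-07. Without values per library no test was run anew: a gene counted as called when its deposited q was under 0.05, and its direction is the sign of the fold change. Positions are given as in the table (mm9).

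The 56 tested genes without a finite fold change were left out of medians. Deciles were formed from the mean FPKM of tested genes, and from the longest GENCODE M21 transcript by symbol or synonym (99.2% of tested genes). Genes of the lists are named by a rule: all members, Alkbh1, Mdm4, Btg2, genes that overlap a member, and from each list up to 4 called genes in each direction with the largest fold change and at least 1 FPKM in either condition. Wrap53, Atm, Atr, Chek2, Dyrk2, Prkdc, Hipk2, Trp53rk, Aurka, Cdkn1b, Trp63, Bcl2, Bcl2l1, Mcl1, Tubb3, Thy1, Pax6, Sox1 and Map2 were added after their values were seen. The members and all lists were chosen with earlier results of these data known. Some genes stand in 2 lists, as Apaf1, Pmaip1, Ppm1d, Chek1, Aurka, Mdm4, Bok and Bak1 do. Of 45 other p53 targets, Tigar was not matched by that symbol and is present under 9630033F20Rik. The adjustment, the centring and the motif search were tested on simulated data. Python 3.11.15, NumPy 2.4.6 and pandas 2.3.3 were used.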

Additional observations from a re-analysis of the deposited data

How the results depend on the processing

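The table gives conditions and not libraries, so leaving out a library was not run. No paired analysis was possible because the table holds 1 value per condition and no library has a column. Calls rest on 1 fit by the authors, and depth limits cannot be stated. Equal totals turned the called falls of Trp53 (0.21), Bax (0.28) and Aen (0.053), centring by level those of Trp53 (0.28) and Bax (0.35), and centring by transcript length that of Bax (0.090); the cause was not tested. The median of the 10 members moved from 0.22 to 0.88 with equal totals, a uniform shift that takes the median of all tested genes from -0.06 to 0.59, to 0.41 with centring by level and to 0.42 with centring by length. Requiring a 1.5-fold difference, which only removes calls, left 1 lower member, 2 lower other p53 targets, 3 lower BCL-2 and caspase genes, 5 lower and 0 higher DREAM genes, and q under 0.1 gave 7 lower other p53 targets. With no mismatch allowed, 1 member (Cdkn1a) had a half-site pair in place of 3. The other 64 comparisons of counts and medians stayed within 1.5 times or 0.1 log2. Those with a recomputed adjustment could not differ, since it equals the deposited one. Members above 0 went from 7 to 10 with equal totals, which falls within that tolerance. Among fold changes of single members, 24 stayed within 0.1 log2, 20 moved by more, and the other 6 are the turned falls above. The number of members above the median of their neighbours was 6 with 5, 10 or 20 genes on each side, and 8 with 10 and centring by level, an alternative chosen after seeing the data.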

Other observations

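Promoter windows were also searched for 36 of the other p53 targets. A pair of half-sites with up to 1 mismatch in each was found in 5 of them (13.9%), against 7.68% of all genes with a window. In the authors' deposited table, Pml, the organiser of nuclear bodies, stood at 21.6 FPKM in WT against 27.7 FPKM in KO (q = 0.042), Zfp365 at 3.87 and 5.82 FPKM (q = 0.00231) and Polk, a DNA polymerase of lesion bypass, at 2.90 and 5.30 FPKM (q = 0.000206). Gtse1, which shuttles p53 out of the nucleus, was not called at 39.8 FPKM in WT against 46.1 FPKM in KO per the authors' deposited table (q = 0.258), and Rps27l was the one of the 5 called lower. These 5 genes were named after the search and their values were seen.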
